A study of Mus musculus with 16 samples.

Results

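The homeostatic microglia genes *P2ry12*, *P2ry13*, *Tmem119*, *Siglech*, *Cx3cr1*, *Sall1*, *Gpr34*, *Olfml3* and *Fcrls* were examined, 9 of the 55487 genes in the table, chosen by name as the genes used to mark resting microglia. All 9 passed the filter on low values, which left 18859 genes for testing. Microglia are the resident macrophages of the brain. In the healthy brain they carry a set of surface receptors and secreted proteins that other macrophages largely lack, and this signature depends on transforming growth factor beta and on the transcription factor *Sall1*. Microglia that respond to inflammation are known to lower much of this signature and to raise phagocytic and antigen-presenting genes.

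Cortex RNA was sequenced from 16 wild-type male C57Bl6 mice aged 2 months, after removal of ribosomal RNA. Each mouse received i.p. injections of LPS at 2 mg/kg, or of PBS as the control, on 2 consecutive days, and the cortex was taken on day 3. Injections were given at ZT1, just after lights on, or at ZT13, just after lights off, which gave 3 mice in the ZT1 PBS group, 5 in ZT1 LPS, 3 in ZT13 PBS and 5 in ZT13 LPS. LPS is a component of bacterial outer membranes that activates innate immune cells, and ZT is zeitgeber time, counted from lights on.

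The values are CPM, the reads on a gene for every 1000000 reads counted in a sample, and each sample had 20251800 to 29112800 reads on genes. For the members, this came to between 13 reads (*Siglech*, in a ZT13 LPS mouse) and 1825 reads (*Cx3cr1*) in a sample. The treatment entered in the sample labels contradicts the sample titles for 12 of the 16 samples, and the titles were used. *Gfap*, an intermediate filament of reactive astrocytes, ranged from 111 to 123 CPM over the 6 mice titled PBS and from 572 to 1134 CPM over the 10 titled LPS. *Lcn2*, an acute-phase lipocalin, was at most 0.197 CPM in the former and at least 107 CPM in the latter. Whole cortex was sequenced, so fewer microglia and less RNA per microglial cell cannot be told apart. No label names a batch or says that the mice of a group were housed or treated apart. The description of ZT13 PBS replicate 1 ends in c2 and those of all other samples in c1, which the labels do not explain.

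The promoters of 4 receptor genes, of which *Siglech* and *P2ry12* fell after LPS, *Cx3cr1* rose and *P2ry13* did not pass the test, are shown first, because the same 300 bases can then be set beside the values that follow. RefSeq (GRCm38.p6) gave an entry for 7 of the 9 members, with 3 start sites for *Sall1*, each entry covering 250 bases before and 50 bases after a start site, read 5′ to 3′ along the gene. *Siglech* lies at chr7:55767934-55768233 on the plus strand, *P2ry12* at chr3:59262936-59263235 on the minus strand, *P2ry13* at chr3:59210833-59211132 on the minus strand, and *Cx3cr1* at chr9:120068247-120068546 on the minus strand. Capitals mark GAGGAA, or its reverse complement TTCCTC, the core bound by PU.1 and related ETS factors.
Siglech: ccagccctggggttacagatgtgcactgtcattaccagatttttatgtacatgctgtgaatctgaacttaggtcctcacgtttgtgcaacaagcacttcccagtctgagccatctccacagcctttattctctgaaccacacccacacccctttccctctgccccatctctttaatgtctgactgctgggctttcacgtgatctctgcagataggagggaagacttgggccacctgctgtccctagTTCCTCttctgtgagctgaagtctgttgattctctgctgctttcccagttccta
P2ry12: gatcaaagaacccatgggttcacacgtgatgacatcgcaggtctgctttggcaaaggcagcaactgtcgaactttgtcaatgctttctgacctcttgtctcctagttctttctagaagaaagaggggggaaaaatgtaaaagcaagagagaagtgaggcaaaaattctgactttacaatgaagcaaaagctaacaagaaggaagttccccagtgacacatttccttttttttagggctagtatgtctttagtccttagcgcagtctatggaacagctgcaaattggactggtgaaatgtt
P2ry13: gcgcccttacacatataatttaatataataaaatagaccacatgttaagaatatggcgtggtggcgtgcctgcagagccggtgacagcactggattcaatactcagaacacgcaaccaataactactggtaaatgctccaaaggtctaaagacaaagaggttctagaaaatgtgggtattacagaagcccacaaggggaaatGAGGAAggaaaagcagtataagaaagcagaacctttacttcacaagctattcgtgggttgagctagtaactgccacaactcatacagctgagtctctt
Cx3cr1: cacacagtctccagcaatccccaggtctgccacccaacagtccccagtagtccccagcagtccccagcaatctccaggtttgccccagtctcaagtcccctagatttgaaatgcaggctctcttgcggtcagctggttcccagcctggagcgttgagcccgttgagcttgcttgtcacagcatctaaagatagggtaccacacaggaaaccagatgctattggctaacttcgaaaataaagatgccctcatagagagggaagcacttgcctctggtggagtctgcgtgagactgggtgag

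On either strand, GAGGAA or TTCCTC was found in 3 of the 7 members with a promoter entry, namely *Siglech*, *P2ry13* and *Fcrls*, and in 28.3% of all 32851 mouse promoters of this length. Relative to the start site the match began at -4 in *Siglech*, -48 in *P2ry13* and -144 in *Fcrls*. The SMAD element CAGACA, on either strand, was in *Siglech* and *Fcrls* and in 21.0% of all promoters. For MEF2, a palindromic 10-base pattern was searched in which the middle bases were left free. This loose pattern was in *Cx3cr1* and in 3.69% of all promoters. The MEF2 element itself allows only A or T at the middle bases, and it was not searched. The match in *Cx3cr1* has a G there, so it is not read as a MEF2 element. None of the 7 held the interferon response element (3.44% of all promoters), the AP-1 element (TGANTCA, 7.81%) or the NF-kappaB element (0.411%), each searched on both strands. The motifs searched do not overlap each other in the member promoters. The promoter of *Siglech*, the member with the largest decrease, and that of *P2ry13*, which no test called, both held the PU.1 core.

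In the GENCODE M21 annotation of GRCm38, *P2ry12* (ENSMUSG00000036353, chromosome 3, 59216272 to 59262871) and *P2ry13* (ENSMUSG00000036362, 59207892 to 59210882) are neighbours on the minus strand, and both lie within *Med12l*, which is read from the plus strand. *P2ry12* shares 9 exonic bases with *Med12l* and *P2ry13* shares 0. *Gpr34* (chromosome X, 13632089 to 13640858) lies within *Cask*, on the opposite strand, with 0 exonic bases shared. *Siglech* (chromosome 7, 55768178 to 55778925, plus strand), *Tmem119* (chromosome 5, 113793729 to 113800516), *Sall1* (chromosome 8, 89027235 to 89044162), *Olfml3* (chromosome 3, 103722222 to 103738001) and *Fcrls* (chromosome 3, 87250758 to 87263738), the last 4 on the minus strand, overlap no other gene. The gene model of *Cx3cr1* (chromosome 9, 119901616 to 120069879, minus strand) overlaps 9 other genes and shares 78 exonic bases with the antisense gene *Gm33858*. The strand setting of the counting is not given in the sources used here, and without strand, reads from a gene and from its opposite-strand partner cannot be told apart. *Med12l* was at 90.0 to 101 CPM across the 16 mice and was not called at either time, with differences of -0.03 (ZT1) and -0.07 (ZT13) on the log2 scale. *Cask* was at 93.3 to 116 CPM and was lower after LPS at ZT13, with a log2 fold change of -0.14 (limma adjusted p = 0.031). The change of *Cask* was smaller than that of *Gpr34* (-1.25).

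In PBS mice the members differed in level. Per kilobase of exon, *Cx3cr1*, the fractalkine receptor, stood highest in the ZT1 PBS group at 7.03 ± 0.29 CPM per kb (SD, n = 3). It was followed by *Fcrls*, an Fc receptor-like scavenger protein, at 5.95 ± 0.16, and *Tmem119*, a transmembrane protein of microglia, at 5.85 ± 0.32 CPM per kb, which did not differ beyond their spread. *P2ry12*, the ADP receptor that guides microglial processes toward injury, at 4.79 ± 0.32, and *Sall1*, at 4.43 ± 0.26 CPM per kb, were likewise within their spread. *Olfml3*, a secreted olfactomedin-like protein, at 2.62 ± 0.29, and *P2ry13*, a second ADP receptor, at 2.58 ± 0.32 CPM per kb, formed the next pair, which was also within its spread. *Siglech*, a sialic acid-binding lectin that signals through *Tyrobp*, at 2.07 ± 0.07, and *Gpr34*, a lysophosphatidylserine receptor, at 1.46 ± 0.21 CPM per kb, were lowest. In the ZT13 PBS group the same 2 genes were lowest, and *Cx3cr1* (6.06 ± 0.46) and *Tmem119* (6.002 ± 0.210 CPM per kb) were highest and within their spread. After LPS the order changed, and in the ZT1 LPS group *Cx3cr1* (11.3 ± 2.5) and *Tmem119* (9.94 ± 2.07 CPM per kb, n = 5) were highest. *Gpr34* (0.84 ± 0.42) and *Siglech* (0.53 ± 0.16 CPM per kb) were lowest there and within their spread.

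**Figure D1:**
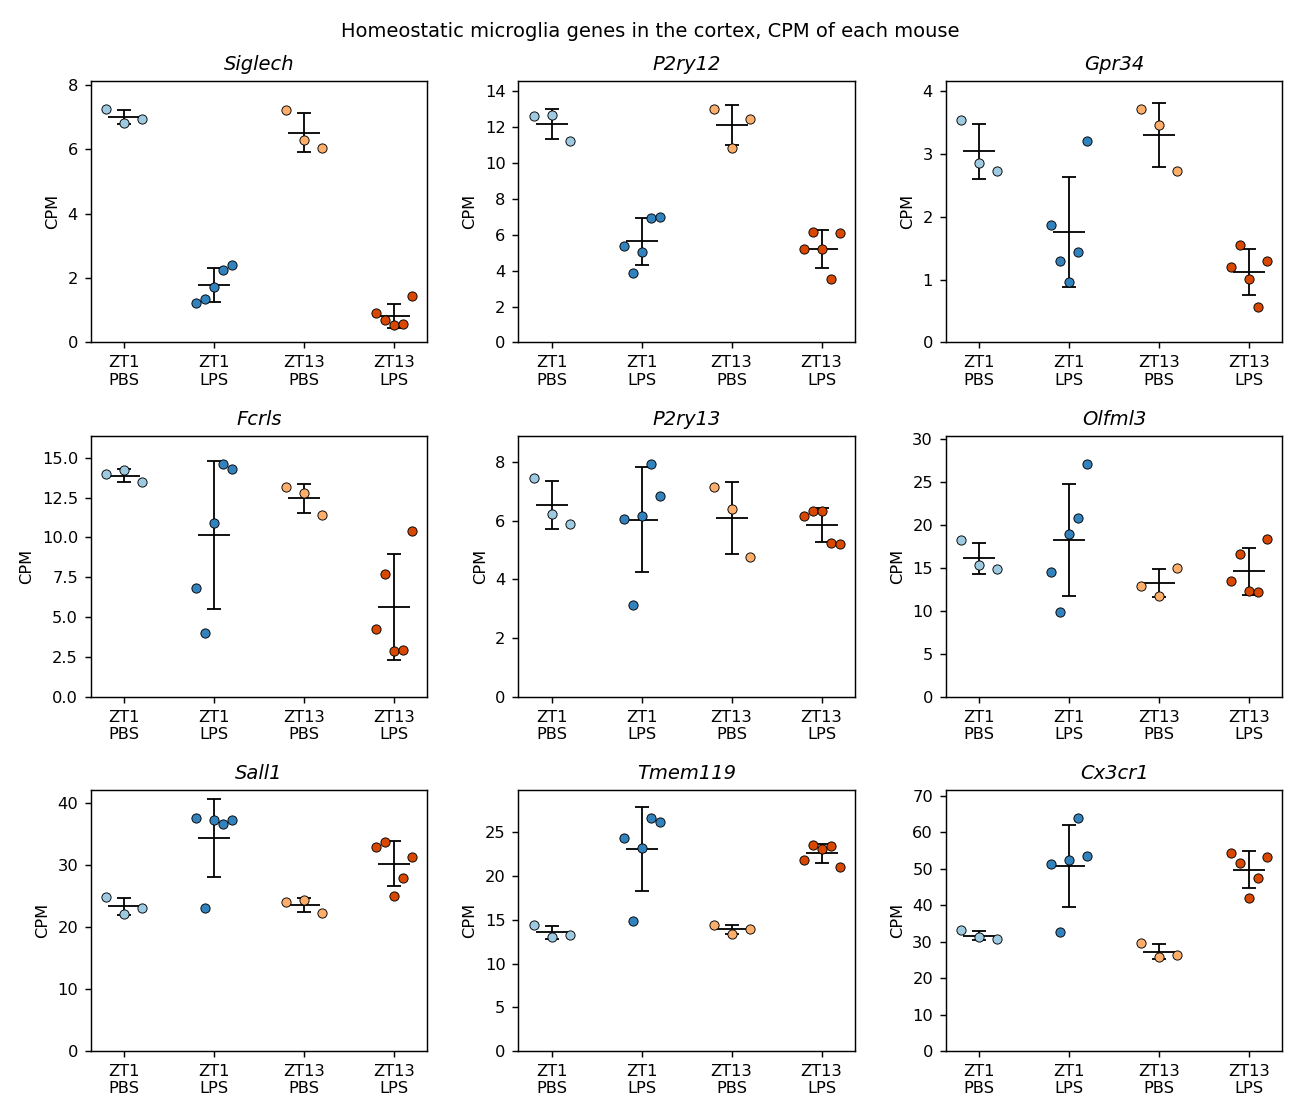
CPM of the 9 homeostatic microglia genes (y axis, from 0) in each mouse of the 4 groups (x axis). Points are mice, and the line and bars are the mean ± SD (n = 3 for PBS and n = 5 for LPS). *Siglech* and *P2ry12* are lower in every LPS mouse than in every PBS mouse, *Tmem119* is higher in every LPS mouse, and *P2ry13* and *Olfml3* overlap between groups.

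The first question was how LPS changed these genes, and the members did not move together. When LPS was compared with PBS at ZT1, 2 of the 9 fell (*Siglech* and *P2ry12*), 3 rose (*Tmem119*, *Cx3cr1* and *Sall1*) and 4 did not pass the test, where 5.15% of all genes tested were called lower and 11.1% higher (limma, adjusted p under 0.05). At ZT13, 4 fell (the same pair with *Gpr34* and *Fcrls*), the same 3 rose and 2 did not pass, where 9.4% of all genes were called lower and 19.2% higher. Without overlap between the groups, 2 members were lower and 1 higher at ZT1 (8.41% and 15.9% of all genes), and 4 were lower and 3 higher at ZT13 (10.3% and 20.9%). The median log2 fold change of the 9 was -0.15 at ZT1 and -0.04 at ZT13, beside 0.04 and 0.05 over all genes tested. The 2 comparisons share no mice.

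*Siglech* showed the largest decrease of the 9. It was at 7.25, 6.81 and 6.95 CPM in the ZT1 PBS mice and at 1.21, 1.34, 1.72, 2.24 and 2.40 CPM in the ZT1 LPS mice. At ZT13 it was at 7.21, 6.29 and 6.05 CPM after PBS and at 0.930, 0.688, 0.545, 0.568 and 1.43 CPM after LPS. Every LPS mouse was below every PBS mouse, at both times. The fitted log2 fold change was -1.75 at ZT1 (SE 0.18, limma adjusted p = 7.9e-05) and -2.43 at ZT13 (SE 0.19, limma adjusted p = 5.3e-07). The exact two-sided permutation test gave p = 0.036 at each time, the smallest that 3 mice against 5 allow. *Siglech* is also a marker of plasmacytoid dendritic cells. Of the 7 markers listed for those cells, 5 were tested, and at ZT13 *Irf7* and *Bst2*, which interferon induces, rose while *Pacsin1* and *Cox6a2* fell. *Irf7* and *Bst2* also rose at ZT1, where of these genes only *Pacsin1* fell. *Klk1* was at most 0.168 CPM in any mouse and at 0 in most. The summed level of the list was 472 to 524 CPM in PBS mice and 451 to 495 CPM in LPS mice, nearly all of it from *Pacsin1*, which neurons also express, at 465 to 517 CPM in PBS mice and 399 to 452 CPM in LPS mice. The part of these cells in the fall of *Siglech* was not tested.

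*P2ry12* fell at both times. It was at 12.6, 12.7 and 11.2 CPM in the ZT1 PBS mice and at 5.36, 3.85, 5.05, 6.93 and 6.98 CPM in the ZT1 LPS mice. In the ZT13 PBS mice it was at 13.02, 10.9 and 12.5 CPM, and after LPS at ZT13 at 5.23, 6.15, 5.20, 3.52 and 6.09 CPM. The LPS and PBS mice did not overlap at either time. On the log2 scale the fold change was -1.07 at ZT1 (SE 0.16, limma adjusted p = 0.0012) and -1.16 at ZT13 (SE 0.15, limma adjusted p = 4.3e-05). *P2ry12* is also expressed by platelets, of whose 6 listed markers only *Itga2b* was abundant enough to test, and it rose at ZT13 and not at ZT1. Of the markers too low to test, *Gp1bb* was at 0.721 to 0.947 CPM in PBS mice and 0.202 to 0.716 CPM in LPS mice. The mean of *Gp9* was also lower after LPS at both times. *Pf4* went the other way at ZT13, at 0.231 to 0.418 CPM after PBS and 0.576 to 1.17 CPM after LPS. The part of platelets in the fall of *P2ry12* was not tested.

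*P2ry13*, which lies beside *P2ry12* on chromosome 3 and also binds ADP, did not pass the test at either time. It ranged from 5.89 to 7.45 CPM in the ZT1 PBS mice and from 3.13 to 7.95 CPM in the ZT1 LPS mice. At ZT13 the range was 4.75 to 7.14 CPM after PBS and 5.19 to 6.33 CPM after LPS. The LPS range lay across the PBS range at ZT1 and within it at ZT13. Its log2 fold change was -0.15 at ZT1 (95% confidence interval -0.64 to 0.34) and -0.04 at ZT13 (-0.32 to 0.24). The interval at ZT13 does not reach the -1.16 of *P2ry12*.

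*Gpr34* fell at ZT13, and at ZT1 its call depended on the processing. At ZT13 it was at 3.72, 3.47 and 2.73 CPM after PBS and at 1.196, 1.55, 1.01, 0.568 and 1.30 CPM after LPS, and the groups did not overlap. At ZT1 it was at 3.55, 2.86 and 2.74 CPM after PBS and at 1.87, 1.30, 0.962, 1.44 and 3.22 CPM after LPS. Of the ZT1 LPS mice, replicate 5 lay within the PBS range and the other 4 were below it. The log2 fold change was -1.25 at ZT13 (SE 0.20, limma adjusted p = 2.9e-04) and -0.72 at ZT1 (SE 0.26, limma adjusted p = 0.078). Without ZT1 LPS replicate 5 the value at ZT1 was -0.92 and passed the test (limma adjusted p = 0.0057). It also passed there with quantile normalization (limma adjusted p = 0.042), in a single fit of all 16 mice (0.041) and with sample quality weights (0.020). The difference between the 2 times did not pass the interaction test (-0.53, limma adjusted p = 0.70).

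*Fcrls* varied widely among LPS mice. It was at 13.95, 14.2 and 13.5 CPM in the ZT1 PBS mice and at 6.86, 4.03, 10.9, 14.6 and 14.3 CPM in the ZT1 LPS mice. At ZT13 it was at 13.1, 12.8 and 11.4 CPM after PBS and at 4.25, 7.69, 2.85, 2.96 and 10.4 CPM after LPS. All 5 ZT13 LPS mice were below the PBS mice, whereas at ZT1 replicates 4 and 5 were slightly above all PBS mice and the other 3 were below them. Its log2 fold change was -1.24 at ZT13 (SE 0.32, limma adjusted p = 0.0093) and -0.57 at ZT1 (SE 0.33, limma adjusted p = 0.28), and the value at ZT1 was -0.30 without replicate 2 of the LPS mice (limma adjusted p = 0.38). The call at ZT13 was lost when genes of any CPM were tested (limma adjusted p = 0.13) and without an intensity trend (limma adjusted p = 0.053). In the PBS groups *Fcrls* had a coefficient of variation of 2.73% and 7.29%, and in the LPS groups of 45.8% and 58.9%.

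*Tmem119*, *Cx3cr1* and *Sall1* rose. *Tmem119* was at 14.4, 13.04 and 13.2 CPM in the ZT1 PBS mice and at 24.3, 14.8, 23.2, 26.6 and 26.1 CPM in the ZT1 LPS mice. At ZT13 it was at 14.4, 13.4 and 13.9 CPM after PBS and at 21.8, 23.5, 23.1, 23.3 and 21.0 CPM after LPS. Every LPS mouse was above every PBS mouse, although ZT1 LPS replicate 2 was only just above. This gave a log2 fold change of 0.72 at ZT1 (SE 0.16, limma adjusted p = 0.010) and of 0.68 at ZT13 (SE 0.06, limma adjusted p = 1.8e-06).

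*Cx3cr1* was at 33.1, 31.2 and 30.7 CPM in the ZT1 PBS mice and at 51.3, 32.7, 52.5, 63.9 and 53.4 CPM in the ZT1 LPS mice. At ZT13 it was at 29.7, 25.9 and 26.4 CPM after PBS and at 54.3, 51.7, 42.1, 47.3 and 53.2 CPM after LPS. The groups did not overlap at ZT13, and at ZT1 only replicate 2 of the LPS mice lay within the PBS range. The log2 fold change was 0.64 at ZT1 (SE 0.16, limma adjusted p = 0.020) and 0.85 at ZT13 (SE 0.08, limma adjusted p = 2.1e-06). *Cx3cr1* is also expressed by monocytes, and all 6 of their listed markers rose at both times. The summed level of these markers was 1.68 to 2.16 CPM in ZT1 PBS, 6.76 to 28.6 in ZT1 LPS, 1.26 to 1.99 in ZT13 PBS and 18.8 to 51.8 CPM in ZT13 LPS, and their part in the rise of *Cx3cr1* was not tested.

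*Sall1*, the transcription factor that maintains microglial identity, was at 24.9, 22.1 and 23.0 CPM in the ZT1 PBS mice and at 37.5, 23.1, 37.3, 36.6 and 37.2 CPM in the ZT1 LPS mice. At ZT13 it was at 24.0, 24.4 and 22.2 CPM after PBS and at 32.9, 33.7, 25.0, 28.0 and 31.3 CPM after LPS. All ZT13 LPS mice were above the PBS mice, by little in replicate 3, and at ZT1 replicate 2 lay within the PBS range. This was a log2 fold change of 0.53 at ZT1 (SE 0.14, limma adjusted p = 0.027) and 0.34 at ZT13 (SE 0.09, limma adjusted p = 0.0084).

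The decreases of *Siglech* and *P2ry12* at ZT1 were called in every alternative and with any mouse left out. The increases numbered 0 when genes of any CPM were tested, 1 without an intensity trend, 1 without ZT1 PBS replicate 1 or replicate 2, and 0 without ZT1 PBS replicate 3. Without ZT1 LPS replicate 2 all 3 remained, with limma adjusted p-values of 1.4e-05 for *Tmem119*, 3.7e-05 for *Cx3cr1* and 1.5e-05 for *Sall1*. *Sall1* alone was also lost without ZT1 LPS replicate 1, 3 or 4, and at ZT13 it was lost when genes of any CPM were tested (limma adjusted p = 0.085) and in a single fit of all 16 mice (0.056).

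*Olfml3* did not pass the test. It ranged from 14.8 to 18.2 CPM in ZT1 PBS, 9.89 to 27.1 in ZT1 LPS, 11.8 to 14.96 in ZT13 PBS and 12.2 to 18.4 CPM in ZT13 LPS, with overlap throughout. The log2 fold change was 0.10 at ZT1 (95% confidence interval -0.43 to 0.64) and 0.13 at ZT13 (-0.15 to 0.40).

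**Figure D2:**
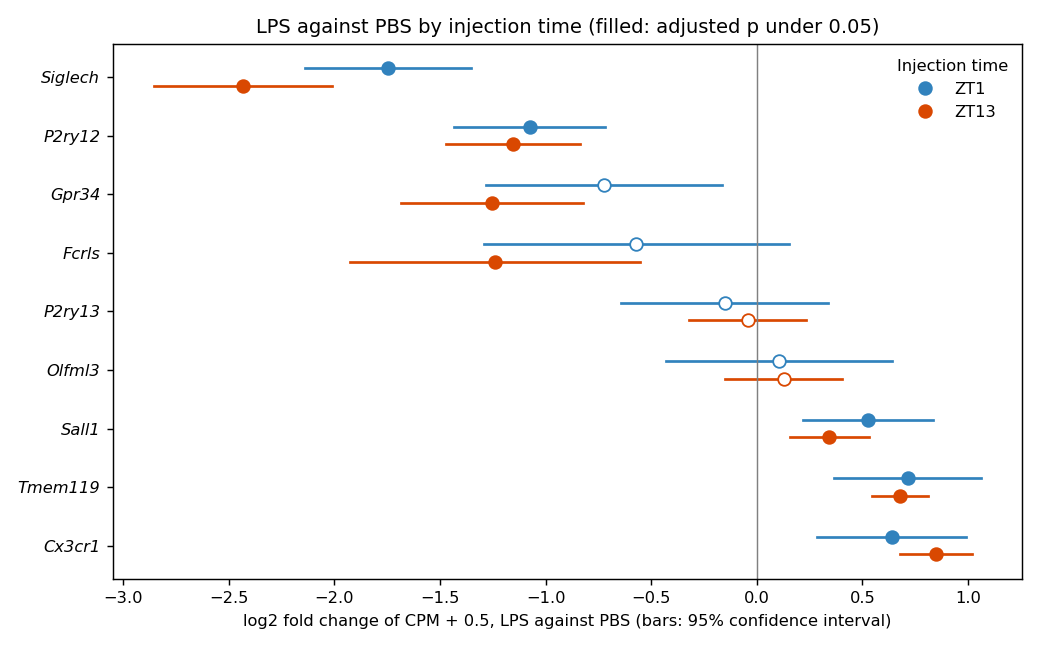
log2 fold change of CPM + 0.5 for LPS against PBS (x axis) for each gene (y axis) at ZT1 and ZT13, with 95% confidence intervals as bars and filled points where the limma adjusted p was under 0.05. *Siglech* lies farthest to the left at both times, at -1.75 and -2.43, and *Tmem119*, *Cx3cr1* and *Sall1* lie to the right of 0.

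Values differed among mice of the same group. ZT1 LPS replicate 2 had the lowest value of its group for 7 members (*P2ry12*, *P2ry13*, *Tmem119*, *Cx3cr1*, *Sall1*, *Olfml3* and *Fcrls*), and the summed CPM of the 9 was 94.1 in that mouse and up to 181 in the others of the group. It was also the lowest ZT1 LPS mouse for *Itgam* (40.5 CPM, against 60.2 to 92.4 in the other 4) and *Spi1* (7.07 against 7.88 to 13.5). The values of both genes were still above those of every PBS mouse.

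The lowest *Fcrls* values at ZT13, 2.85 and 2.96 CPM in replicates 3 and 4, stood in the mice with the highest *S100a9*, a calcium-binding protein of neutrophils, at 46.0 and 47.3 CPM. At ZT1, however, the lowest *Fcrls* value, in replicate 2, stood in the mouse with the lowest *S100a9*, at 4.61 CPM. Of the 8 neutrophil markers, 6 were tested, and 5 rose at ZT1 and 6 at ZT13. Their summed level was 0.593 to 1.04 CPM in ZT1 PBS, 10.8 to 53.0 in ZT1 LPS, 0.416 to 1.08 in ZT13 PBS and 37.3 to 99.1 CPM in ZT13 LPS. The defining marker *Cxcr2* was at 0 in every PBS mouse, and *Mmp8* at 0 in the ZT13 PBS mice. The part of these cells in the member levels was not tested.

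**Figure D3:**
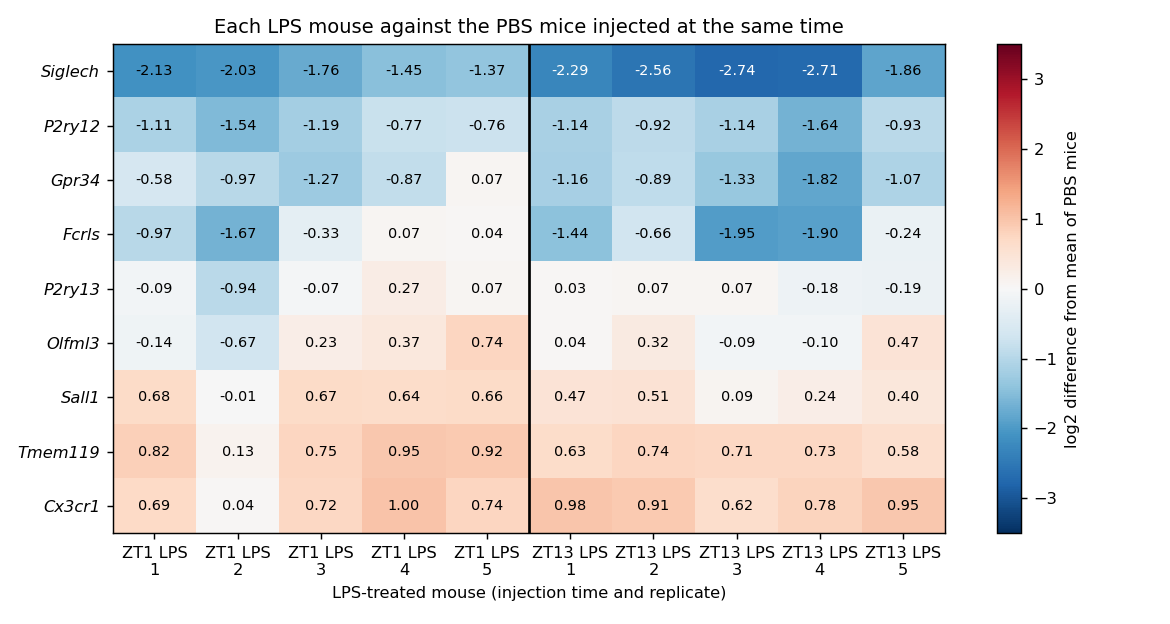
log2 difference of each LPS mouse (columns, by injection time and replicate) from the mean of the PBS mice injected at the same time, for each gene (rows). Blue is lower and red is higher, and the value is written in each cell. *Siglech* and *P2ry12* are lower in all 10 mice, from -1.37 to -2.74 for *Siglech*, and ZT1 LPS replicate 2 has values of -0.01 to 0.13 for the 3 genes that rose.

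The second question was whether these genes differed between the 2 injection times. In the paper the cortex was taken a full day after the last injection, so the clock time of collection differed too. The time of injection and that of collection cannot be told apart. When ZT13 LPS was compared with ZT1 LPS, 0 of the 9 passed the limma test, beside 0.0106% of all genes lower and 0.0106% higher. An unadjusted limma p under 0.05 was found for 2 of the 9, beside 1998 of the 18859 genes tested. *Siglech* came closest. Its level was lower at ZT13 by 0.78 on the log2 scale (SE 0.20, 95% confidence interval -1.22 to -0.35, limma adjusted p = 0.17), with 4 of the 5 ZT13 LPS mice below all ZT1 LPS mice and replicate 5 within the range of the ZT1 LPS mice. The exact permutation test gave p = 0.024 for *Siglech*, unadjusted for the 9 members, where the smallest possible is 0.0079. *Siglech* passed in a single fit of all 16 mice (limma adjusted p = 0.042) and with sample quality weights (0.033), and limma adjusted p-values over the alternatives ran from 0.033 to 0.44. The other member under an unadjusted 0.05 was *Fcrls*, with a log2 fold change of -0.82 (SE 0.37, limma adjusted p = 0.46).

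For the remaining members the difference between ZT13 LPS and ZT1 LPS was close to 0 or had a wide interval. It was 0.00 for both *Tmem119* (95% confidence interval -0.27 to 0.27) and *Cx3cr1* (-0.30 to 0.29), and 0.01 for *P2ry13* (-0.38 to 0.40). *P2ry12* was at -0.09 (-0.45 to 0.27), and *Sall1* at -0.17 (-0.44 to 0.10). *Gpr34* (-0.43) and *Olfml3* (-0.26) had intervals from -0.94 to 0.08 and from -0.71 to 0.20. None of the 9 separated the 2 LPS groups without overlap, which 0.408% of all genes did in the lower and 1.55% in the higher direction.

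In PBS mice, 0 of the 9 passed when ZT13 was compared with ZT1 (limma), beside 0.217% of all genes lower and 0.302% higher. There 2 of the 9 had an unadjusted limma p under 0.05, beside 2543 of the 18859 genes tested. *Cx3cr1* was at 30.7 to 33.1 CPM at ZT1 and at 25.9 to 29.7 CPM at ZT13, without overlap, and its log2 fold change was -0.21 (SE 0.06, limma adjusted p = 0.21). *Fcrls* also did not overlap, at 13.5 to 14.2 CPM against 11.4 to 13.1 CPM, with a log2 fold change of -0.15 (limma adjusted p = 0.45). Without overlap, 9.21% of all genes were lower and 9.52% higher at ZT13, beside these 2 members lower and 0 higher, and 3 mice against 3 cannot give an exact permutation p under 0.10. The second member under an unadjusted 0.05 was *Olfml3*, with a log2 fold change of -0.28 (limma adjusted p = 0.31).

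The interaction tests whether the LPS change differed between the 2 times. It passed for 0 of the 9 (limma), beside 0.0371% of all genes in the lower and 0.122% in the higher direction. Its unadjusted limma p was under 0.05 for 1 of the 9, beside 1745 of the 18859 genes tested. The value for *Siglech* was -0.69 (SE 0.28, limma adjusted p = 0.44), and those of the others lay between -0.67 for *Fcrls* and 0.21 for *Cx3cr1*. The calls of *Gpr34* and *Fcrls* at ZT13 and not at ZT1 therefore do not show that their response differed by time.

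The third question was how the members moved relative to another microglial gene in the same mouse. *Csf1r*, the receptor on whose signal microglia depend for survival, served as the reference, and it was at 74.1 to 82.4 CPM in ZT1 PBS, 87.6 to 141 in ZT1 LPS, 75.4 to 78.2 in ZT13 PBS and 106 to 125 CPM in ZT13 LPS. Relative to *Csf1r*, 5 members were lower in every ZT1 LPS mouse than in every ZT1 PBS mouse (*Siglech*, *P2ry12*, *Gpr34*, *Fcrls* and *P2ry13*) and 0 were higher, where 49.5% of all genes were lower and 2.23% higher by this ratio. At ZT13, 7 were lower (the same 5, *Sall1* and *Olfml3*) and 1 was higher (*Cx3cr1*), where 74.2% of all genes were lower and 4.15% higher. A lower ratio was thus common among all genes at both times, so these counts are not read as a result about the members. *Csf1r* itself was called higher at ZT1 (log2 fold change 0.59, limma adjusted p = 0.0060). The log2 ratio of *Siglech* to *Csf1r* changed by -2.34 at ZT1 and -3.02 at ZT13, and that of *P2ry12* by -1.67 and -1.75. The ratio of *Sall1* to *Csf1r* changed by -0.06 and -0.25. For *Tmem119* the ratio changed by 0.12 and 0.09, and the groups overlapped at both times. The ratio of *Cx3cr1* changed by 0.05, with overlap, at ZT1 and by 0.26 at ZT13. These ratios show unequal change between genes, and not which gene changed.

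**Figure D4:**
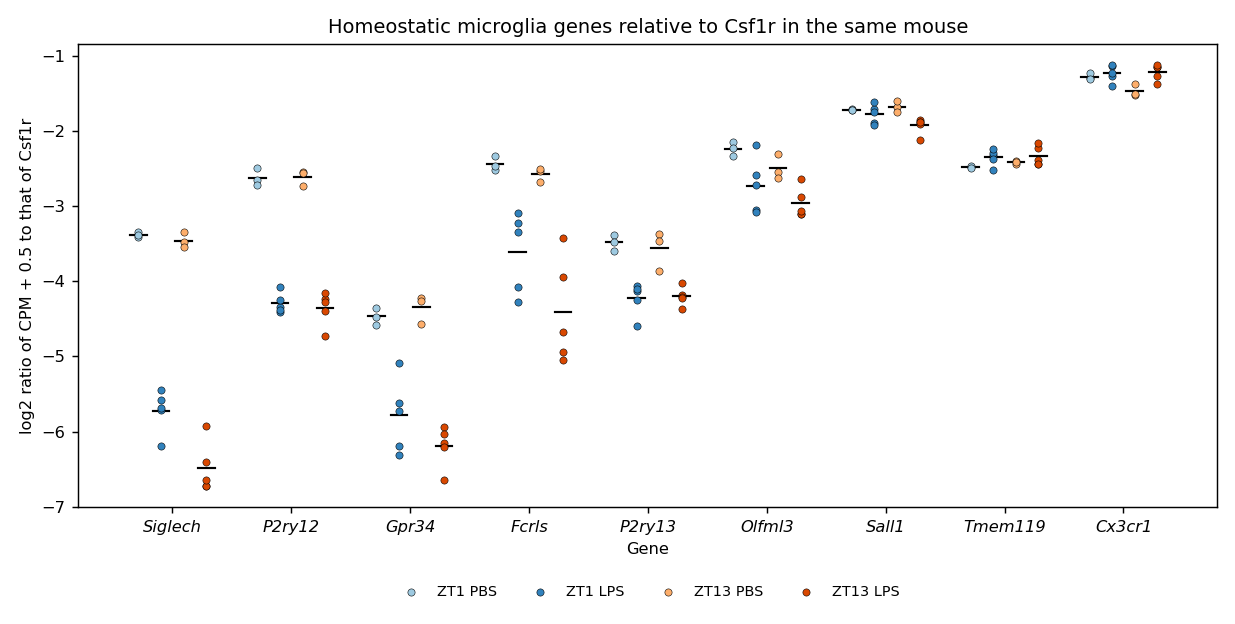
log2 ratio of CPM + 0.5 of each gene to that of *Csf1r* in the same mouse (y axis), by gene (x axis) and group. Points are mice and short lines are group means. The mean ratio of *Tmem119* lies between -2.48 and -2.33 in the 4 groups, and that of *Siglech* goes from -3.38 to -5.72 at ZT1 and from -3.46 to -6.48 at ZT13.

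Other genes of these cells were counted from lists of microglial and neighbouring genes. The counts here and in the lists that follow are to be read beside those of all genes tested. Of all genes tested, 11.1% were called higher and 5.15% lower at ZT1, and 19.2% and 9.4% at ZT13. Of 19 further microglia-enriched surface and enzyme genes tested, 7 rose and 2 fell at ZT1, and 12 rose and 4 fell at ZT13, with median log2 fold changes of 0.36 and 0.47. Among those that fell at ZT13 were *Slc2a5*, a fructose transporter, with a log2 fold change of -1.24, and *Lag3*, an inhibitory receptor, with -0.98. Among those that rose were *Bin2*, a membrane-curving protein (2.09), and *Cd33*, a sialic acid-binding receptor (1.38). So this list too held changes in both directions. The markers of monocytes and neutrophils also rose, and their part in the increases of this list was not tested.

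All 14 pan-microglial and myeloid genes rose at both times, with median log2 fold changes of 1.47 and 1.76. *Itgam*, the CD11b integrin, was at 11.99 to 15.6 CPM in ZT1 PBS, 40.5 to 92.4 in ZT1 LPS, 13.7 to 14.1 in ZT13 PBS and 81.9 to 105 CPM in ZT13 LPS. These genes are shared by microglia, macrophages, monocytes and neutrophils, and the summed level of the list rose from between 209 and 226 CPM in PBS mice to between 392 and 671 CPM in LPS mice. Of 12 activated-microglia genes tested, 9 rose and 2 fell at each time. *Spp1*, or osteopontin, was at 4.14 to 6.91 CPM in PBS mice and 28.3 to 51.8 CPM in LPS mice. *Apoe* and *Lpl*, which handle lipids, were the 2 that fell. *Apoe* was at 859 to 955 CPM in PBS mice, far above *Csf1r* at 74.1 to 82.4 CPM. Which cells its reads came from was not tested.

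Of 12 microglial transcription factors besides *Sall1*, 6 rose and 1 fell at ZT1, and 7 rose and 2 fell at ZT13. The largest increases at ZT13 were in *Spi1*, which encodes PU.1 (log2 fold change 2.33), and *Runx1* (2.00). In ZT13 LPS, *Spi1* was highest in replicates 3 and 4 (17.1 and 16.7 CPM), the mice with the highest *S100a9* (46.0 and 47.3 CPM). In ZT1 LPS both genes were highest in replicate 1 (13.5 and 26.4 CPM). The part of neutrophils and monocytes in these increases was not tested. *Mef2c* (-0.28) and *Egr1* (-0.53) fell, and both are also expressed by neurons. *Mef2c* was the 1 transcription factor called in the interaction.

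Of 16 genes of TGF-beta and CSF1 receptor signalling, 5 rose and 1 fell at ZT1, where 11.1% of all genes were called higher and 5.15% lower. At ZT13, 5 rose and 2 fell, where 19.2% and 9.4% of all genes did. The count of genes that fell was near these shares, and nothing is read from it. The median log2 fold change of the list was 0.020 at ZT1 and 0.017 at ZT13, beside 0.040 and 0.050 over all genes tested. *Csf1*, a ligand of the receptor *Csf1r* on which microglia depend, rose by a log2 fold change of 1.30 at ZT13, and *Tgfb1* by 1.43. *Il34*, the other ligand of *Csf1r*, which neurons make, fell by 0.31 on the log2 scale. The receptor gene *Tgfbr2* rose at both times, by 0.70 and 0.91.

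Of 20 ligands, ligand-processing enzymes and relatives of the member receptors, 5 rose and 1 fell at ZT1, and 9 rose and 2 fell at ZT13. The count of genes that fell was near the share of all genes called lower, 5.15% at ZT1 and 9.4% at ZT13, and nothing is read from it. *Cx3cl1*, the neuronal fractalkine that binds *Cx3cr1*, was at 726 to 741 CPM in ZT1 PBS, 465 to 640 in ZT1 LPS, 657 to 687 in ZT13 PBS and 488 to 585 CPM in ZT13 LPS. It was lower in every LPS mouse, with a log2 fold change of -0.38 at ZT1 (limma adjusted p = 0.0084) and -0.36 at ZT13 (limma adjusted p = 1.5e-04), while its receptor rose. *P2ry6*, the UDP receptor linked to phagocytosis, was at 1.99 to 3.06 CPM in PBS mice and 6.36 to 11.9 CPM in LPS mice, in the opposite direction to *P2ry12*. *P2ry14*, which lies in the same receptor cluster as *P2ry12* and *P2ry13*, was not called (0.08 at ZT1 and 0.09 at ZT13, log2).

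Markers of other cells were counted in the same way, to be read beside the 11.1% of all genes called higher and 5.15% lower at ZT1, and the 19.2% and 9.4% at ZT13. Of 6 perivascular and meningeal macrophage genes tested, 4 rose at ZT1 and 3 at ZT13. The summed level of all 8 listed was 31.7 to 39.7 CPM in PBS mice and 68.7 to 146 CPM in LPS mice. Most of it came from *Stab1*, at 20.6 to 27.8 CPM in PBS mice and 57.4 to 118 CPM in LPS mice. *Mrc1*, also listed, overlapped, at 3.41 to 5.73 CPM in PBS mice and 2.64 to 7.13 CPM in LPS mice. Of 6 endothelial genes, 4 rose and 1 fell at ZT1 and 6 rose at ZT13. Of 6 astrocyte genes, 3 rose at each time and 1 fell at ZT13. Of 6 mural cell genes, 1 rose at ZT1 and 2 at ZT13. Of 6 neuronal genes, 1 fell at ZT1 and 4 at ZT13, and of 5 oligodendrocyte genes, 2 fell at ZT1 and 4 at ZT13. The counts of mural cell genes at both times, and that of neuronal genes at ZT1, rest on only 1 or 2 genes, and nothing is read from them. The part of these shifts in the member levels was not tested.

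Over the 16 mice, the members fell into patterns by likeness, measured as the root mean square difference between centred log2 profiles, where 0 is an identical profile. *Tmem119* and *Cx3cr1* were closest to each other (0.14), followed by *Tmem119* and *Sall1* (0.19) and by *Cx3cr1* and *Sall1* (0.20). *P2ry12* and *Gpr34* came next (0.28). *Siglech* and *Cx3cr1* were farthest apart (1.42). The mice share treatment groups, so these distances mostly describe the LPS change.

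The genes outside the 9 most like their mean profile were *Cmtm5* (0.13), *Grm3* (0.15), *Hipk4* (0.15), *Plxnb3* (0.16) and *Car2* (0.16). That mean averages members that fell after LPS, such as *Siglech* (-2.43 at ZT13), with members that rose, such as *Cx3cr1* (0.85). The genes nearest to the mean are therefore not read as moving with the members. Each member's own profile gave different genes. *Csf1r* was among the 5 nearest to *Tmem119* (0.10), *Cx3cr1* (0.13) and *Sall1* (0.13). For *Siglech* the nearest were *Slc22a8* (0.38) and *Ighm* (0.43), and for *Fcrls* it was *Gpr17* (0.41).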

How the data were processed

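Total RNA of the cortex of 16 mice was sequenced. The deposited file is 1 table of CPM made by the authors, with a column for each sample and 55774 lines, of which 287 repeat a gene and were removed. The submitters' processing notes name bcl2fastq, DRAGEN 4.0.3-8 and GRCm38, without their roles. The counting tool and its strand setting are not given in the sources used here. All 16 columns were mapped to samples by their titles. Among low values 80.7% to 82.8% were whole multiples of the value of 1 read (tolerance 0.01 of a read), so counts could not be recovered and the number of reads quoted is an estimate. CPM is scaled by the library total alone.

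Genes that reached 1 CPM in 3 or more samples were tested as log2(CPM + 0.5) in R 4.3.3 by limma 3.58.1, using an intensity trend and Benjamini-Hochberg adjustment over all 18859 genes, and were called at an adjusted p under 0.05. Fold changes are on this scale and understate those of low genes. LPS was compared with PBS at each time, and ZT13 with ZT1 in LPS mice and in PBS mice, each on its 2 groups alone. The interaction used all 16 samples. Ratios within a mouse used *Csf1r*, which had been listed as an alternative reference gene. The ratio to the gene listed first is not reported here, so the counts hold for *Csf1r* and may differ with another gene. Exact permutation tests were two-sided, on the difference of means. The labels do not say whether samples are separate litters or cages, so p-values measure the spread between these mice. The ± values are SD between mice.

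The 9 members and the 16 further gene lists were chosen with earlier results of these data known, and support no independent claim. All 9 members are named. From each list the 2 largest increases and decreases past the threshold at ZT13 may be named, with genes that overlap a member or are its ligand or nearest relative, and *Gfap* and *Lcn2* as checks of treatment. A few other list genes were named after their values were seen. Likeness to the profile of each single member was added after the data were seen. Levels per kilobase use the summed exons of GENCODE M21, whatever the isoform, and 55141 of the genes in the table are in that annotation. Promoters came from RefSeq. The fit was tested on simulated data. Summaries used Python 3.11.15 with scipy 1.17.1, pandas 2.3.3 and numpy 2.4.6, and plots used matplotlib 3.10.9. Alternatives were other pseudocounts, filters, scalings, variance models, a replicate block and leaving out each mouse.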

Additional observations from a re-analysis of the deposited data

Results flagged for a closer look

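In the groups of 5 LPS mice, 18 sets of member values were examined for a sample far from the others, and 2 were found. Chance alone gives about 1 in 20. Both were in ZT1 LPS replicate 2. *Sall1* was at 23.1 CPM in that mouse, and the gap to the next mouse was 0.94 of the range of the group. *Tmem119* was at 14.8 CPM there, with a gap of 0.71 of the range, just past the critical value of 0.71. The same mouse was the lowest of its group for 5 further members, and without it the log2 fold changes at ZT1 were 0.66 for *Sall1* and 0.86 for *Tmem119*. The cause was not tested.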

How the results depend on the processing

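Most values kept their direction and their side of the threshold under other pseudocounts, filters, scalings, variance models and fits. The members called higher at ZT1 numbered 0 with genes of any CPM tested and 1 without an intensity trend, and 0 to 3 when a mouse was left out. Those called lower when ZT13 LPS was compared with ZT1 LPS numbered 1 in a single fit of all 16 mice and 1 with sample quality weights, and that gene was *Siglech*. The cause of these changes was not tested. Against the summed *Aif1*, *C1qa*, *C1qb*, *C1qc*, *Ctss* and *Csf1r* in place of *Csf1r* alone, 9 members were lower at ZT1, and 9 lower and 0 higher at ZT13, where 91.7% and 94.2% of all genes were lower. *Gpr34* was not tested with the filter at 5 CPM, which it did not pass.

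The members that did not pass changed sign under some settings. With quantile normalization, *Olfml3* was at -0.011 for LPS against PBS at ZT13 and at -0.028 in the interaction, and *P2ry13* was at -0.042 for ZT13 LPS against ZT1 LPS, where median-of-ratios scaling gave -0.0039. With sample quality weights *P2ry13* was at -0.11 there and at -0.040 in the interaction, and *Olfml3* at -0.11 in the interaction.

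When each mouse was left out in turn, *P2ry13* ran from -0.26 to 0.045 at ZT1 and from -0.20 to 0.073 at ZT13 for LPS against PBS, and *Olfml3* from -0.055 to 0.30 at ZT1. For ZT13 LPS against ZT1 LPS, *P2ry13* ran from -0.19 to 0.11, *Tmem119* from -0.15 to 0.057, *Cx3cr1* from -0.15 to 0.088 and *P2ry12* from -0.21 to 0.032, while *Gpr34* (-0.57 to -0.23), *Olfml3* (-0.45 to -0.096), *Sall1* (-0.30 to -0.11) and *Fcrls* (-1.10 to -0.65) kept their sign. In PBS mice *P2ry12* ran from -0.065 to 0.063, *Sall1* from -0.024 to 0.058 and *P2ry13* from -0.22 to 0.053. In the interaction *Olfml3* ran from -0.17 to 0.18, *P2ry13* from -0.087 to 0.23, *Tmem119* from -0.18 to 0.021 and *P2ry12* from -0.20 to 0.042.

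The labels tie the replicate numbers to nothing shared, so the mice were treated as unpaired. Residuals of mice with the same number correlated at -0.20 to 0.33. Mice with different numbers were not set beside them, so this range cannot decide whether the numbers pair the mice. With the replicate number as a block, 4 members were called lower at ZT1, where *Gpr34* (-0.94) and *Fcrls* (-0.99) joined. Under this block *Olfml3* was at -0.19 at ZT1 and *P2ry13* at 0.056 at ZT13 for LPS against PBS, and no other member call changed.

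The depth limits *Siglech* and *Gpr34* after LPS, where single mice had as few as 13 and 15 reads, and the number of PBS mice limits every comparison with them.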
